A study of Mus musculus with 2 samples.

Results

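Ly6a, Ly6c1 and Ly6e, which encode small surface proteins of the Ly6 family, were followed together with Cd34 and Thy1 in single cells of mouse limb tendon. The members were taken by symbol: these 5 genes of 27998 in the tables, each present once in both libraries. They were chosen with earlier results of these data known. The study lists Ly6a, Cd34 and Ly6c1 among the most upregulated genes of its mutant cell cluster against its wild-type tenocyte cluster. That contrast differs from the comparisons within a class or a library made here. By immunostaining the study also found Sca-1 and CD34 protein in mutant tendon cells and in wild-type epitenon. The tables came from droplet-based 3′ single-cell RNA sequencing of tendon cells at postnatal day 7, with 1 library for each of 2 groups and 2 pups pooled in each. The control library was titled wild-type but its description reads Het, and the mutant library (CKO) came from Tgfbr2;ScxCre pups, in which the floxed type II TGFβ receptor gene is deleted by a Cre driven from Scleraxis (Scx) regulatory sequences. Pups of both groups bore a tendon reporter, ScxGFP, together with the Ai14 reporter of Cre activity (Rosa26-tdTomato, or RosaT), by the study's methods, and Scx counts include reads of ScxGFP. Cells of the tendon surface were not scraped off before digestion. ScxCre is not uniform in embryonic tenocytes and reaches all of them only after birth, and it is also active in some cells outside tendon. The 3′ tags of Tgfbr2 cannot show in which cells the gene was deleted. Because each condition is 1 pool of pups, cells are not replicates: no p-value is given, and every 95% interval in what follows covers counting error only. Library, batch and genotype cannot be told apart.

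The control library held 2364 cells with a median of 3866.5 unique molecular identifiers (UMIs, counts of captured RNA molecules) per cell, and the mutant library 2592 cells with a median of 2828. The libraries shared 2 barcodes. Cells were placed in classes without using any of the 5 genes. Mesenchymal cells had at least 5 UMIs over Col1a1 and Col3a1 and were Scx-high at 30 or more Scx UMIs per 10000 and Scx-low below that. Because Scx itself sets these classes, a class need not hold the same kinds of cells in both libraries, and a difference within a cell type cannot be told apart from a difference in which cells the class holds. Endothelial cells had at least 2 UMIs over Cdh5, Cldn5 and Tie1, and immune cells at least 3 over 7 leukocyte genes. There were 1162 control and 214 mutant Scx-high cells, 869 and 1925 Scx-low cells, 21 and 28 endothelial cells, and 194 and 193 immune cells. Independent markers were counted in each class. Of Scx-high cells, 99.7% in the control and 96.7% in the mutant had 3 or more UMIs over 6 tenocyte markers such as Tnmd and Fmod. So did 40.4% of control and 57.1% of mutant Scx-low cells. By the same rule, 99.5% of control and 96.7% of mutant Scx-high cells had peritenon fibroblast markers, so that list taken as a whole did not separate the classes. Levels are given as CPM (counts per 1000000 UMIs, each gene's or list's share of all UMIs of the class). The tenocyte list was at 16377 CPM in control Scx-high and 2036 in control Scx-low cells, and at 11519 and 2783 in the mutant. The peritenon fibroblast list was at 13369 CPM in control Scx-high and 13494 in control Scx-low cells. Single genes of it differed: Dpt was at 8.64 and 419, Pi16 at 11.3 and 645, and Lum at 95.2 and 1407. The immune class was led by the macrophage genes Lyz2 and C1qa, with T and B lymphocyte markers at 41.7 CPM in the control and 15.6 in the mutant. The Scx-low class was not pure fibroblast. Pericyte and smooth muscle markers were at 5570 CPM in control and 811 in mutant Scx-low cells, and 203 control and 193 mutant Scx-low cells had 3 or more UMIs over mural, Schwann or muscle markers. Free RNA was present: Scx reached 1774 CPM in control immune cells and 80.6 in mutant ones, so Scx levels in this range are within what control immune cells held.

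Ly6 proteins fold into a compact 3-fingered domain held by disulfide bonds and are tethered to the outer membrane by a glycosylphosphatidylinositol (GPI) anchor. Ly6a encodes stem cell antigen-1 (Sca-1), widely used to sort blood stem cells and stromal progenitors of the mouse. Ly6c1 encodes one of the Ly6C antigens, found on many endothelial cells as well as on leukocytes. Ly6e is broadly expressed and inducible by interferon. Thy1 (CD90) is likewise GPI-anchored, but it is a member of the immunoglobulin superfamily and a common marker of fibroblasts and T cells. Cd34 encodes a transmembrane sialomucin of blood stem cells, small-vessel endothelium and interstitial fibroblasts. In connective tissue, Sca-1 and CD34 are known as markers of fibroblasts of adventitia and fascia.

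In GRCm38 the Ly6 genes lie together on chromosome 15. Ly6e is at chr15:74955051-74959905 on the plus strand, Ly6a at chr15:74994877-74998031 on the minus strand and Ly6c1 at chr15:75044018-75048830 on the minus strand. These 3 belong to a run of 16 Ly6-type genes between positions 74714839 and 75599481. Only the members and a fixed list of family genes were looked up, so other genes of the interval were not counted. Cd34 is at chr1:194938819-194961279 and Thy1 at chr9:44043384-44048579, both on the plus strand. UMIs come from the 3′ ends of transcripts, so counting followed the last exons. Of the 50-base stretches in the last 400 bases of annotated Ly6c1 transcripts, 29.4% also occur in another gene, with 24.3% in Ly6c2 and 4.87% in Ly6a. Of those of Ly6a, 9.27% occur in another gene, with 5.48% in Ly6c1. None of those of Ly6e, Cd34 or Thy1 occur in another gene. Ly6c2 itself had 2 UMIs in the control and 9 in the mutant library. How many Ly6c1 molecules were lost or misplaced through the shared sequence was not tested.

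RefSeq promoter windows matched by symbol for 2 of the 5 genes, Ly6c1 and Cd34, and are shown for that reason. Each is the 250 bases before the annotated start in GRCm38.p6, 5′ to 3′ on the strand of the gene. Capitals mark matches to 5 motifs searched on both strands. They were the TATA box (TATAAA), the GC box (GGGCGG), the E-box bound by basic helix-loop-helix factors such as Scleraxis (CANNTG), the Smad element (CAGACA) and the core of the interferon-stimulated response element.
Ly6c1 (chr15:75048838-75049087, minus strand): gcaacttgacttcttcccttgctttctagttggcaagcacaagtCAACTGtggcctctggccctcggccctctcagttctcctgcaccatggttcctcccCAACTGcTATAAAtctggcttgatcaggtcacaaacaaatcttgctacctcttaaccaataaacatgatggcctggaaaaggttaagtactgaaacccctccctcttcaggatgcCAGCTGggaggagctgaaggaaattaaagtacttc
Cd34 (chr1:194938571-194938820, plus strand): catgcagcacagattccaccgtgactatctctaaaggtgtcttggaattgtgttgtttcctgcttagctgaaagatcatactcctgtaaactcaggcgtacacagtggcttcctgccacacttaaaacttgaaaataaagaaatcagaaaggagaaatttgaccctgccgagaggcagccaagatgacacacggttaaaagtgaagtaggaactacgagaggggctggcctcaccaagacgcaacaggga
The Ly6c1 window held 3 E-boxes, at positions -206, -150 and -35 from the start, and a TATA box at -143, while the Cd34 window held none of the 5. An E-box was present in 66.2% of all 32851 promoter windows of this length, a GC box in 32.7%, the Smad element in 17.1%, a TATA box in 12.4% and the interferon core in 2.98%. The window of a second Ly6c1 start, which lies further downstream and overlaps the one shown, held a Smad element at -134 on the opposite strand and E-boxes at -209 and -168.

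Ly6a was a gene of Scx-low cells in both libraries. Scx-low cells held 95.3% of the Ly6a UMIs of the control and 97.2% of those of the mutant. Its level there was 1096 CPM in the control (95% interval 1061 to 1132) and 924 in the mutant (900 to 949), with up to 50 molecules in a single control cell. Endothelial cells stood next, with 110 (50.3 to 209) in the control and 193 (120 to 295) in the mutant, followed by mutant immune cells at 107 and mutant Scx-high cells at 79.2. Control Scx-high cells had 31.5 and control immune cells 17.1. Intervals overlapped between neighbours in this order from the mutant endothelial to the mutant Scx-high cells, and again between control Scx-high and immune cells. The levels of all 5 genes are drawn in the plot by cell class.

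**Figure D1:**
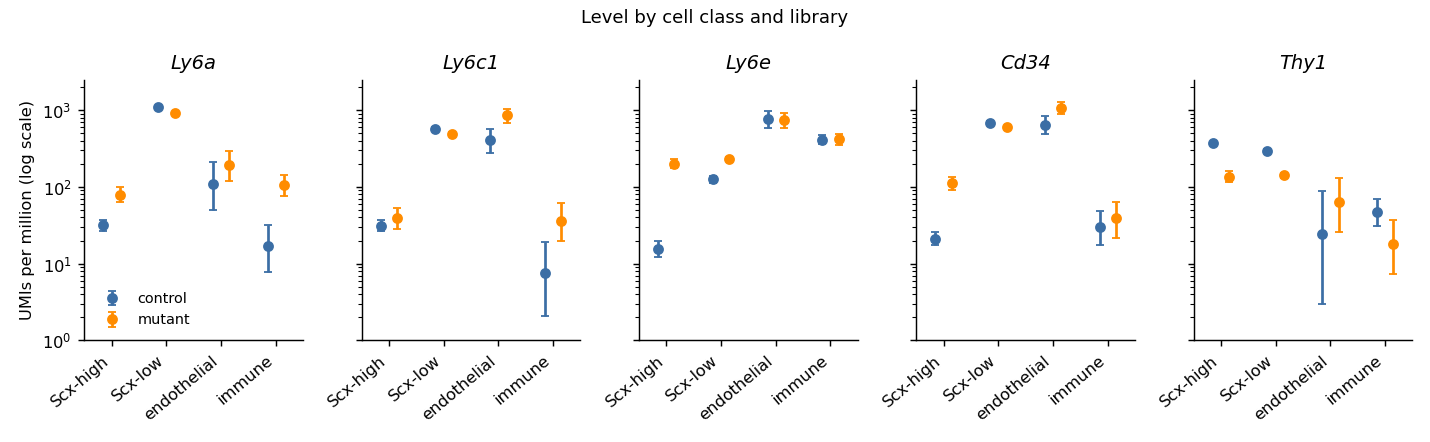
Level of each gene (y axis, CPM, log scale) in 4 cell classes (x axis) of the control (blue) and mutant (orange) library, with exact Poisson 95% intervals that cover counting error only. Ly6a, Ly6c1 and Cd34 are low in Scx-high cells and high in Scx-low cells of both libraries, Ly6e is lowest in control Scx-high cells at 15.6, and Thy1 is highest there at 369.

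Cd34 and Ly6c1 were shared by Scx-low and endothelial cells. Cd34 was at 686 (659 to 715) CPM in control Scx-low cells and 597 (578 to 617) in mutant ones, against 648 (486 to 848) in control endothelial and 1077 (890 to 1290) in mutant endothelial cells. Ly6c1 was at 570 (545 to 596) and 495 (477 to 513) in Scx-low cells and at 404 (278 to 567) and 856 (691 to 1048) in endothelial cells. For both genes mutant endothelial cells ranked first, the control endothelial interval overlapped those of Scx-low cells, and no Scx-high or immune class exceeded 112 for Cd34 or 39.6 for Ly6c1. The proportion between Cd34 and Ly6a differed between the cell types. Endothelial cells held 5.89 Cd34 UMIs per Ly6a UMI in the control (2.88 to 13.6) and 5.57 in the mutant (3.48 to 9.34), whereas Scx-low cells held 0.626 (0.594 to 0.659) and 0.646 (0.619 to 0.674).

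Ly6e had another order. It was highest in endothelial cells, at 771 CPM in the control and 736 in the mutant, and next in immune cells, at 413 and 419. Neither class differed between libraries by more than its counting interval, with mutant over control ratios of 0.955 (0.678 to 1.35) and 1.01 (0.821 to 1.25). The mesenchymal levels spread over more than a decade: 231 (219 to 244) in mutant Scx-low cells, 201 (174 to 231) in mutant Scx-high cells, 125 (114 to 138) in control Scx-low cells and 15.6 (12.3 to 19.6) in control Scx-high cells. The mutant mesenchymal classes overlapped with each other and lay above both control classes.

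Among the 4 classes, Thy1 alone of the 5 genes was highest in control Scx-high cells. They stood first at 369 (352 to 386) CPM and control Scx-low cells second at 298 (280 to 317). Mutant Scx-low cells had 142 (132 to 151) and mutant Scx-high cells 137 (115 to 161), which overlapped. All endothelial and immune classes were at 64.4 or less, and the 21 control endothelial cells held 2 Thy1 molecules in all. Control Scx-high cells contributed 62.9% of the Thy1 UMIs of their library, and the few Scx-high cells of the mutant 13.3%.

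The first comparison was between Scx-low and Scx-high cells of the same library, which does not cross libraries. In the control, Ly6a was 34.8 times higher in Scx-low cells (29.6 to 41.2), Cd34 32.4 times (26.6 to 39.8), Ly6c1 18.2 times (15.5 to 21.7) and Ly6e 8.01 times (6.26 to 10.4), while Thy1 had a ratio of 0.807 (0.746 to 0.872). Of 3089 genes that reached 50 CPM in either class and 10 UMIs in all, 19.7% were at least 2-fold higher and 5.5% at least 2-fold lower in Scx-low cells, and the median gene was higher by 0.43 on the log2 scale. So 4 of the 5 members were on the higher side, and a ratio above that of Ly6a was found in 0.712% of these genes. In the mutant, Ly6a was 11.7 times higher in Scx-low cells (9.36 to 14.7), Ly6c1 12.5 times (9.16 to 17.5) and Cd34 5.34 times (4.43 to 6.50). Ly6e, with a ratio of 1.15 (0.993 to 1.34), and Thy1, with 1.04 (0.865 to 1.25), did not differ by more than counting error. There 8.09% of 3115 genes were at least 2-fold higher and 5.94% at least 2-fold lower, with the median at 0.05, and 3 of the 5 members were on the higher side. For Thy1 in the control the direction depended on the cells kept: without cells carrying mural, Schwann or muscle markers its ratio was 1.01, and that of Ly6c1 was 31.1. With the Scx threshold at 15 per 10000, the ratio of Cd34 was 21.5 in the control and that of Ly6a 7.56 in the mutant.

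The second comparison was mutant over control within a class. Among Scx-low cells Ly6a (ratio 0.843, 0.809 to 0.879), Ly6c1 (0.868, 0.819 to 0.919) and Cd34 (0.870, 0.826 to 0.917) were all slightly lower in the mutant, by less than 2-fold. These are values of a class that made up 36.8% of control and 74.3% of mutant cells, with different shares of Pi16-positive and mural-marker cells, and not of 1 matched cell type. Ly6e was higher, at 1.85 (1.66 to 2.06), and Thy1 lower, at 0.476 (0.434 to 0.521). Without cells carrying mural, Schwann or muscle markers all 5 ratios moved outside these intervals. They were then 0.727 for Ly6a, 0.729 for Ly6c1, 0.738 for Cd34, 1.65 for Ly6e and 0.364 for Thy1. Of 3153 genes, 3.3% were at least 2-fold higher and 5.61% at least 2-fold lower, around a median of -0.03 on the log2 scale. Thy1 alone among the 5 passed 2-fold. A lower ratio than that of Thy1 or a higher one than that of Ly6e was thus uncommon: 94.9% of these genes had a larger ratio than Thy1 and 4.03% a larger one than Ly6e.

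Among Scx-high cells the differences were wider, between 214 mutant and 1162 control cells that need not be the same population. Ly6e was 12.9 times higher in the mutant (9.83 to 17.0), with 203 UMIs against 76. Cd34 was 5.28 times higher (4.01 to 6.96) and Ly6a 2.52 times (1.90 to 3.32). Thy1 was lower, with a ratio of 0.370 (0.309 to 0.440), from 1794 UMIs in the control and 138 in the mutant. Ly6c1 did not differ by more than counting error at 1.27 (0.871 to 1.80) and stayed under 50 CPM in both libraries, so the other 4 of the 5 passed the floor. Here 12% of 2836 genes were at least 2-fold higher and 4.13% at least 2-fold lower, and the median gene was higher by 0.31 on the log2 scale. Of the 5 members 3 were at least 2-fold higher and 1 lower. Relative to that median the ratio of Ly6e was 10.3, of Cd34 4.25, of Ly6a 2.03 and of Thy1 0.298. Leaving out the 175 control and 64 mutant Scx-high cells with mural, Schwann or muscle markers gave a ratio of 3.80 for Ly6a and of 2.53 (1.67 to 3.75) for Ly6c1, and a mean over cells of equal weight gave 3.91 and 2.21.

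**Figure D2:**
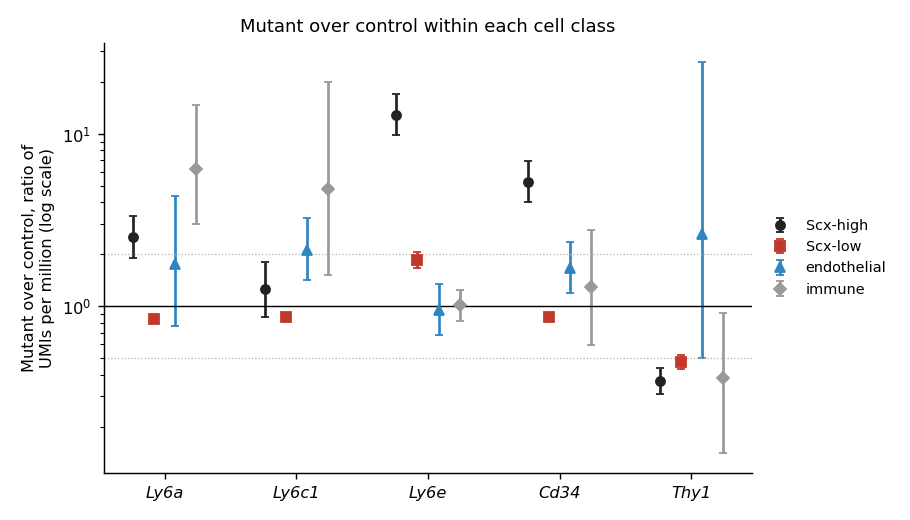
Ratio of the mutant to the control level of each gene (y axis, ratio of CPM, log scale) within Scx-high, Scx-low, endothelial and immune cells, with exact conditional 95% intervals for counting error. The solid line marks equal levels and the dotted lines 2-fold differences. Ly6e and Cd34 stand furthest above the line in Scx-high cells, at 12.9 and 5.28, and Thy1 lies below it in both mesenchymal classes.

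In the non-mesenchymal classes the counts were small. Endothelial Ly6c1 was 2.12 times higher in the mutant (1.41 to 3.26) and endothelial Cd34 1.66 times (1.19 to 2.34), from 21 and 28 cells. Immune Ly6a had 9 UMIs in the control and 41 in the mutant, a ratio of 6.25 (2.99 to 14.6), but these 41 came from 11 cells and up to 11 from 1 cell. Over all cells of each library Ly6a, Ly6c1 and Cd34 were 1.67, 1.68 and 1.75 times higher in the mutant, while within the Scx-low cells that hold at least 91.0% of their molecules they were lower. In bulk values of this kind, more cells of a class and more RNA per cell cannot be told apart.

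To compare the share of cells with each gene at equal depth, cells were thinned at random to 1500 UMIs, which left 1077 control and 198 mutant Scx-high cells and 817 and 1745 Scx-low cells. Among Scx-low cells Cd34 was found in 52.4% of control (48.9 to 55.9) and 51.3% of mutant cells (48.9 to 53.7), Ly6a in 48.6% (45.1 to 52.1) and 44.1% (41.8 to 46.5), and Ly6c1 in 37.1% (33.8 to 40.5) and 31.5% (29.3 to 33.8). Without thinning the shares of cells with Ly6a were 54.9% and 51.1%, and of cells with Cd34 65.9% and 65.8%. Ly6e was found in 17.4% of control (14.8 to 20.2) and 21.8% of mutant Scx-low cells (19.9 to 23.9), and Thy1 in 24.6% (21.7 to 27.7) and 14.0% (12.4 to 15.8).

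In control Scx-high cells the shares of cells with Ly6a, Ly6e and Cd34 were near background. They were 2.32%, 2.32% and 2.51%. Haemoglobin-rich red blood cells, which should lack Ly6a and Cd34, gave 0 of 77 cells for both, which allows a share of up to 3.90% (3 counts of the total, the limit used for every count of 0), and 1 of 77 for Ly6e. Thy1 by contrast was found in 41.3% of control Scx-high cells (38.4 to 44.3), and in 2 of 77 red blood cells. The few Ly6a-positive control Scx-high cells often held the other genes too. Ly6c1 was found in 44% of these 25 cells (24.4 to 65.1) and in 3.14% of the 1052 Ly6a-negative ones (2.17 to 4.38). Cd34 was found in 20% (6.83 to 40.7) and 2.09% (1.32 to 3.15). What these positive cells are was not tested. In mutant Scx-high cells Ly6e was found in 21.7% (16.2 to 28.1), Thy1 in 15.2% (10.5 to 20.9), Cd34 in 12.1% (7.92 to 17.5) and Ly6a in 8.59% (5.08 to 13.4). Mutant red blood cells gave 0 of 71 for each of the 5 genes, which allows up to 4.23%. Mutant immune cells, however, gave 7.14% (3.13 to 13.6), or 8 of 112 cells, for both Cd34 and Ly6a at the same depth. The Ly6a and Cd34 shares of mutant Scx-high cells were thus within counting error of those of immune cells. The Cd34 levels were not: 112 CPM (92.2 to 134) in mutant Scx-high and 39.0 (21.8 to 64.3) in mutant immune cells. The Ly6a levels, 79.2 and 107, had overlapping intervals. The proportions differed between the classes: mutant Scx-high cells held 1.41 Cd34 UMIs per Ly6a UMI (1.05 to 1.91), mutant Scx-low cells 0.646 and mutant immune cells 0.366 (0.188 to 0.675).

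Along the Scx level the shares of control cells with Ly6a, Ly6c1 and Cd34 fell, while that of Thy1 was highest at the most Scx. Ly6a was found at equal depth in 53.1% of mesenchymal cells with no Scx UMI, in 44.2% at 5 to under 15 Scx UMIs per 10000, in 20.7% just under the threshold of 30, in 7.5% just above it and in 1.58% at 200 or more. Cd34 went from 60.6% through 27.6% and 25% on either side of the threshold to 1.26%, and Ly6c1 from 39.4% to 3.15%. Thy1 did not change steadily: it went from 22.4% at no Scx through 27.6% just under the threshold and 15% of the 40 cells just above it to 45.1% at 200 or more. Its level was 304 CPM at no Scx, 161 just above the threshold and 388 at 200 or more. The cells on either side of 30 were few, 67 below and 49 above, and their values were intermediate for Ly6a, Ly6c1 and Cd34. The 1774 CPM of Scx in control immune cells falls in the range of 15 to under 30 per 10000. That of control haemoglobin-rich cells, 219, falls in the range of over 0 to under 5. The order of control cells below the threshold is therefore uncertain.

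In the mutant the gradients of Ly6a, Ly6c1 and Cd34 kept their direction, from 46.6%, 33.6% and 54.5% of cells with no Scx to 8.89%, 4.44% and 8.89% of cells at 200 or more. Ly6e had no such slope: it was found in 22% of mutant cells with no Scx, in 12.7% at 60 to under 200 and in 27.8% at 200 or more, while in the control it went from 16.6% to 1.74%. Thy1 was found in 15.1% of mutant cells with no Scx and in 5.26% at 5 to under 15. At 200 or more Scx UMIs per 10000 it was found in 17.8% of mutant cells (10.5 to 27.3), against 45.1% in the control (41.2 to 49.1). In this range the libraries also differed in Ly6e, Ly6a and Cd34. Ly6a was found in 8.89% of mutant (3.92 to 16.8) and 1.58% of control cells (0.759 to 2.88). Cd34 was found in 8.89% (3.92 to 16.8) and 1.26% (0.546 to 2.47). For Ly6c1 the intervals overlapped. The range has no upper end, so its cells were not matched on the Scx level itself. These shares are drawn in the plot along the Scx level.

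**Figure D3:**
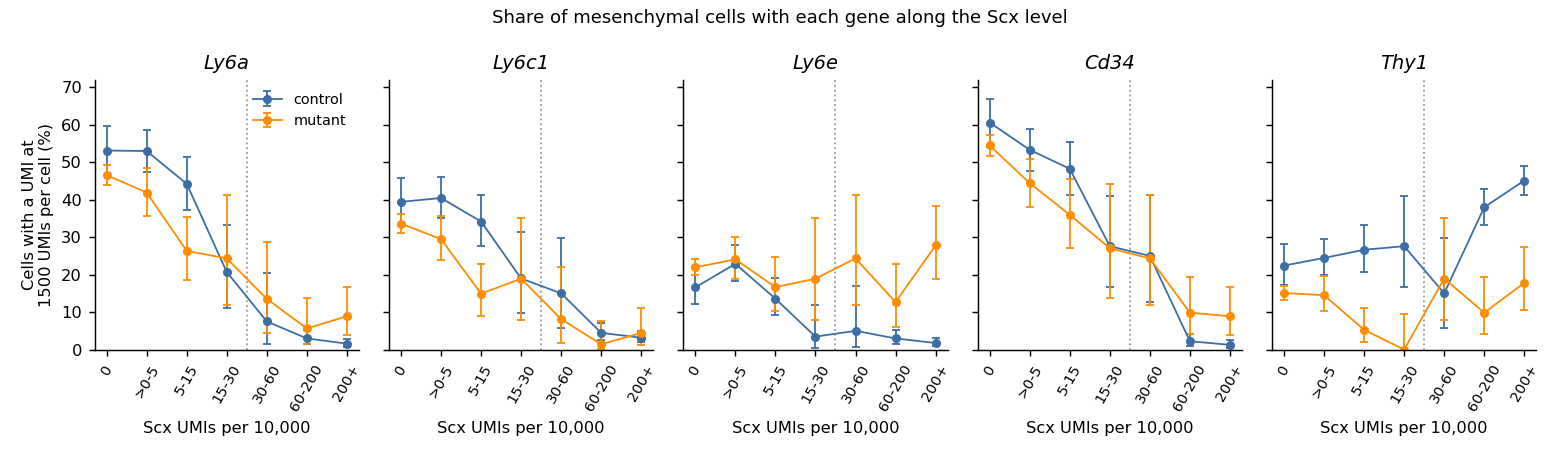
Share of mesenchymal cells with at least 1 UMI of each gene after thinning every cell to 1500 UMIs (y axis, percent, exact binomial 95% intervals) in 7 ranges of Scx UMIs per 10000 (x axis), for the control (blue) and mutant (orange) library. The dotted line marks the threshold of 30. Ly6a, Ly6c1 and Cd34 fall away with Scx in both libraries, Ly6e does so in the control only, and Thy1 reaches 45.1% in control cells with the most Scx.

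Ly6a and Ly6c1, neighbours on chromosome 15, were found in the same cells. In control Scx-low cells at equal depth, Ly6c1 was found in 69% of the 397 Ly6a-positive cells (64.2 to 73.5) and in 6.9% of the 420 Ly6a-negative ones (4.67 to 9.77), an odds ratio of 29.5. In mutant Scx-low cells the shares were 60.1% (56.6 to 63.6) of 770 and 8.92% (7.21 to 10.9) of 975, an odds ratio of 15.3. Seen from the other gene, 90.4% of control and 84.2% of mutant Ly6c1-positive cells also had Ly6a. The share of 3′ sequence that both genes have in common is given above, and its part in this overlap was not tested.

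Cd34 overlapped Ly6a less tightly, and less in the mutant than in the control. Cd34 was found in 78.1% of control Ly6a-positive Scx-low cells (73.7 to 82.1) and 28.1% of Ly6a-negative ones (23.9 to 32.7), an odds ratio of 9.06. In the mutant it was found in 63.2% (59.7 to 66.7) and 41.8% (38.7 to 45.0), an odds ratio of 2.39. Cells with Cd34 but no Ly6a made up 14.4% of control (12.1 to 17.0) and 23.4% of mutant Scx-low cells (21.4 to 25.4), and cells with Ly6a but no Cd34 10.6% (8.62 to 13.0) and 16.2% (14.5 to 18.0). All 3 of Ly6a, Ly6c1 and Cd34 were found together in 27.4% of control (24.4 to 30.6) and 18.1% of mutant Scx-low cells (16.3 to 20), while at least 1 of them was found in 64.5% and 69.7%. So the share of cells with any of the 3 was not lower in the mutant, and the share with all of them was. The mutant levels of these genes were 0.843 to 0.870 of the control levels, and the part of that in their joint detection was not tested.

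Ly6e and Thy1 were less tied to the others. In control Scx-low cells Ly6e went with Cd34, found in 73.9% of Ly6e-positive and 47.9% of Ly6e-negative cells, but in mutant ones the shares were 51.7% and 51.2%, with an odds ratio of 1.02. Ly6e and Ly6a went together in both libraries, with odds ratios of 3.26 and 2.60. Thy1 and Ly6a had odds ratios of 2.92 and 2.57 in Scx-low cells. In control Scx-high cells Thy1 stood alone: 38.7% of cells (35.8 to 41.7) had Thy1 and none of Ly6a, Ly6c1 and Cd34. Ly6a, Cd34 and Thy1 together, a combination often used to sort stromal progenitors, were found in 13.8% of control (11.5 to 16.4) and 6.13% of mutant Scx-low cells (5.05 to 7.36), in 0 of 1077 control Scx-high cells, which allows up to 0.279%, and in 0 of 198 mutant ones, which allows up to 1.52%.

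**Figure D4:**
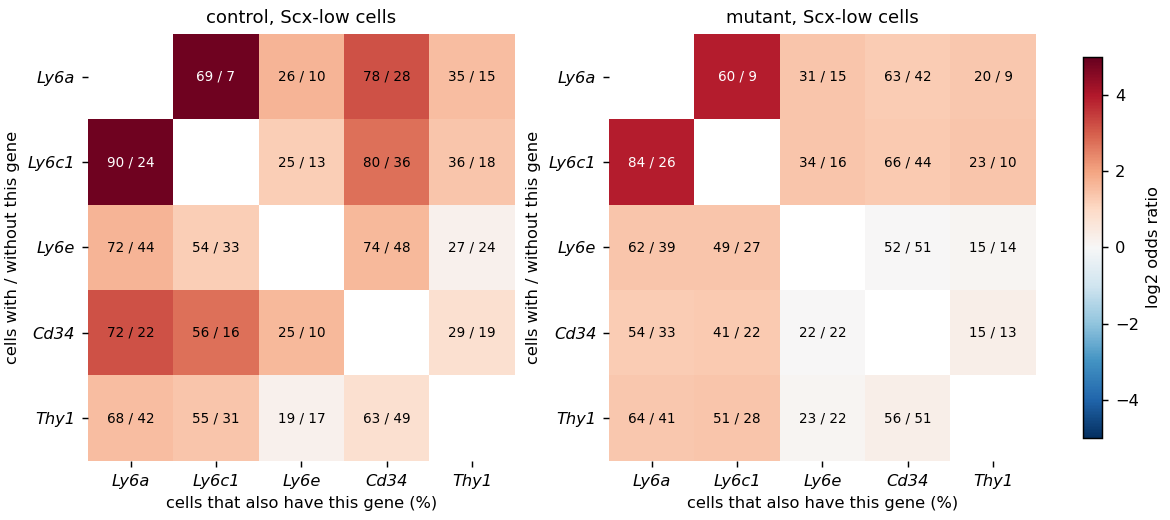
Joint detection of the 5 genes in Scx-low cells thinned to 1500 UMIs, with the control on the left and the mutant on the right. Each square gives the percent of cells with the gene of the column among cells with and without the gene of the row, and its colour the log2 odds ratio. The Ly6a and Ly6c1 squares are the darkest in both libraries, and the squares of Cd34 with Ly6a are paler in the mutant, where the odds ratio is 2.39 against 9.06.

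Scx-low cells were then split by genes outside the set. Pi16 marks adventitial fibroblasts, and Tnmd (tenomodulin) is a membrane glycoprotein of mature tenocytes. Pi16 was found in 323 control and 363 mutant Scx-low cells, which is 37.2% and 18.9% of the class. Ly6a was at 1971 (1896 to 2048) and 1766 (1693 to 1841) CPM in these cells, and at 542 and 700 in cells without a Pi16 UMI, so the Pi16-positive cells had 3.63 times more in the control (3.39 to 3.90) and 2.52 times more in the mutant (2.39 to 2.66). Ly6c1 had 4.25 and 2.79 times more in Pi16-positive cells, Thy1 2.94 and 2.64 times and Cd34 2.55 and 1.78 times. Thy1 was at 499 (462 to 539) CPM in control Pi16-positive cells, above the 369 of control Scx-high cells. A Pi16 UMI is more easily found in a cell with more UMIs, so this split depends on depth.

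The small deficit of Ly6a, Ly6c1 and Cd34 in mutant Scx-low cells was not present in every subset. In Pi16-positive cells the mutant over control ratio of Ly6a was 0.896 (0.846 to 0.948) and of Cd34 0.837 (0.774 to 0.904). In cells without Pi16 all 3 genes were higher in the mutant, Ly6a by 1.29 times (1.21 to 1.38), Ly6c1 by 1.43 times (1.29 to 1.58) and Cd34 by 1.2 times (1.11 to 1.29). The ratio over the whole class thus lay on the other side of 1 from that of its larger subset, which made up 62.8% of control and 81.1% of mutant Scx-low cells. These subsets kept cells with mural, Schwann or muscle markers, 203 of the control and 193 of the mutant Scx-low cells. Such cells had 354 and 290 CPM of Ly6a and 228 and 268 of Cd34. Their unequal part in the ratios of cells without Pi16 was not tested.

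Cells with 5 or more Tnmd UMIs per 10000 and no Pi16 showed the widest gap for each of the 5 genes but Thy1. There were 192 such cells in the control and 618 in the mutant. Ly6a was at 233 (196 to 276) CPM in the control and 610 (575 to 646) in the mutant, a ratio of 2.62 (2.19 to 3.15). Ly6c1 was at 112 and 287, a ratio of 2.56 (1.98 to 3.36), and Cd34 at 301 and 442, a ratio of 1.47 (1.25 to 1.74). Ly6e was at 42.5 (27.5 to 62.8) and 260 (238 to 284), 6.12 times higher in the mutant (4.10 to 9.55), and Thy1 at 105 and 71.8, a ratio of 0.681 (0.501 to 0.935). In cells with less Tnmd and no Pi16 the ratios of Ly6a, Ly6e and Cd34 were 1.15, 1.85 and 1.17. Tnmd counts outside the mesenchymal classes bear on this split. Control immune cells had 485 Tnmd CPM, which is close to the threshold of 5 per 10000, and mutant ones 143. Control haemoglobin-rich cells had 69.5.

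**Figure D5:**
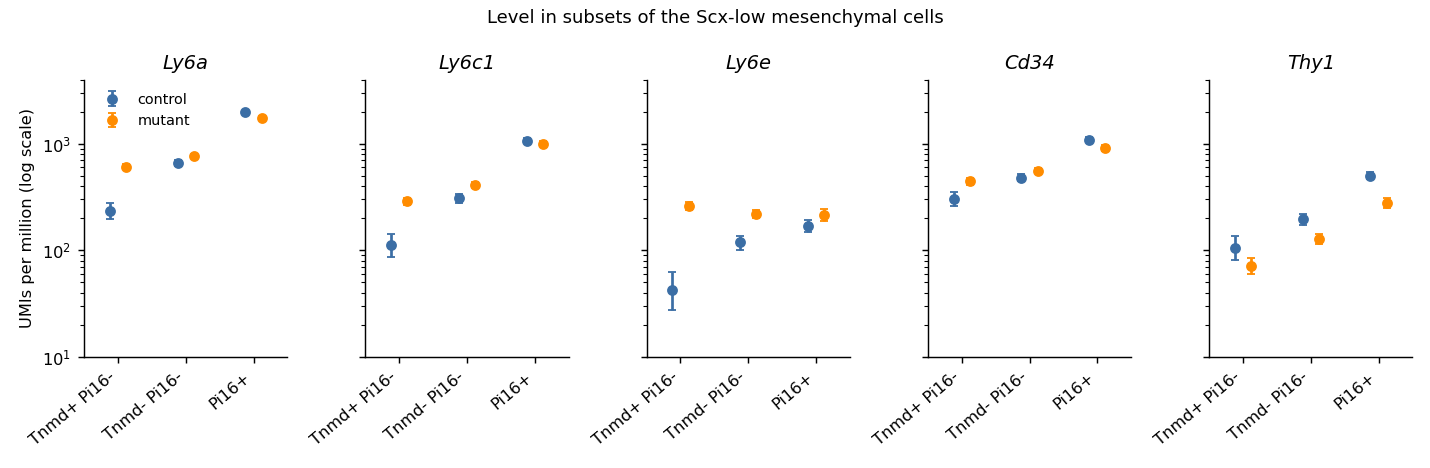
Level of each gene (y axis, CPM, log scale, exact Poisson 95% intervals) in 3 subsets of Scx-low cells: Tnmd+ Pi16- (5 or more Tnmd UMIs per 10000 and no Pi16 UMI), Tnmd- Pi16- (fewer Tnmd UMIs and no Pi16) and Pi16+ (at least 1 Pi16 UMI), for the control (blue) and mutant (orange) library. For each gene but Thy1 the libraries lie furthest apart in the Tnmd+ Pi16- cells, where Ly6e is at 42.5 in the control and 260 in the mutant.

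The odds ratio of Cd34 with Ly6a, given without an interval, was lower in the mutant in each of these subsets. Cells with mural, Schwann or muscle markers were not left out of them. It was 5.81 in control and 1.80 in mutant Tnmd-positive cells without Pi16. That control value rests on 20 Ly6a-positive cells, 13 of them with Cd34. The odds ratios were 4.96 and 1.97 in Tnmd-low cells without Pi16, and 8.74 and 3.89 in Pi16-positive cells. In no subset were the Cd34 shares of the libraries apart both among cells with Ly6a and among cells without it. In the Tnmd-positive cells the intervals were apart only among cells without Ly6a. Of these, 23.5% (16.9 to 31.1) had Cd34 in the control and 38.4% (33.4 to 43.5) in the mutant. The same held in Tnmd-low cells, at 27.8% and 44.3%. In Pi16-positive cells the intervals were apart only among cells with Ly6a, at 85.3% (80.3 to 89.4) and 74% (68.1 to 79.3). Thy1 went with Ly6a in the Pi16-positive cells of both libraries, where it was found in 43.4% of control Ly6a-positive and 10.6% of Ly6a-negative cells and in 32.4% and 9.09% of mutant ones. It also did so in mutant Tnmd-low cells without Pi16, at 17.5% (13.6 to 22.1) and 8.51% (6.25 to 11.3), while the intervals overlapped in the other subsets.

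Few relatives of the 5 genes were expressed at a measurable level. Of 30 other Ly6/uPAR family genes, 2 passed the floor of 50 CPM in the comparison of Scx-low cells between libraries. Ly6h, best known from brain, was 6.04 times higher in the mutant (4.50 to 8.26), at 86.5 CPM against 14.3, and Plaur, the urokinase receptor, had a ratio of 0.339 (0.266 to 0.431). Ly6h lies in the same run of genes on chromosome 15, at chr15:75551268-75567255. It was found in 295 of 1925 mutant Scx-low cells, or 15.3% (13.7 to 17.0), in 31 of 869 control ones, or 3.57% (2.44 to 5.03), and in 1 cell of each Scx-high class. Its level in the mutant was 90.8 in Pi16-positive, 97.7 in Tnmd-low and 67.2 in Tnmd-positive cells, so it was not confined to a subset. In Scx-high cells 2 family genes passed the floor: the complement inhibitor Cd59a, 5.05 times higher in the mutant (3.49 to 7.32), and the TGFβ-superfamily pseudoreceptor Bambi, with a ratio of 0.304 (0.234 to 0.390).

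Among 22 interferon-stimulated genes, 7 passed the floor in Scx-low cells and 0 were at least 2-fold higher in the mutant, where 3.3% of all genes were and Ly6e was at 1.85. Ifi27l2a was lower, with a ratio of 0.265 (0.211 to 0.331), H2-D1 had a ratio of 0.522 (0.475 to 0.572) and Ifitm3 one of 1.69 (1.64 to 1.75). In Scx-high cells 6 passed and again 0 were 2-fold higher, against 12% of all genes, so with so few genes neither count stands apart from the background. Bst2 had a ratio of 0.386 (0.279 to 0.521), B2m of 1.57 (1.45 to 1.70) and Ifitm3 of 1.49 (1.35 to 1.65). Their median log2 ratio was -0.24 in Scx-high cells, where that of all genes was 0.31.

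Of 15 other surface proteins used to sort fibroblasts and stromal progenitors, 8 passed the floor between Scx-low cells of the libraries, with 1 at least 2-fold higher and 2 at least 2-fold lower, against 3.3% and 5.61% of all genes. Vcam1 was 3.24 times higher in the mutant (2.58 to 4.09). Mcam, also a pericyte gene, had a ratio of 0.164 (0.126 to 0.212), Cd248 of 0.449 (0.408 to 0.493) and the hyaluronan receptor Cd44 of 0.510 (0.459 to 0.567). Between Scx-high cells of the libraries 5 of the list passed the floor and 0 differed by 2-fold. Cd44 was there 1.84 times higher in the mutant (1.38 to 2.45). The study reports Cd44 as upregulated in its mutant cluster against wild-type tenocytes, which is another contrast, and CD44 protein in mutant tendon cells. Between Scx-low and Scx-high control cells 5 of 8 were at least 2-fold higher, against 19.7% of all genes, among them Cd248 at 31.0 times (23.0 to 42.6), Mcam at 22.8 times (14.0 to 39.8), Pdgfra at 9.36 times (6.57 to 13.7) and Cd44 at 5.93 times (5.04 to 7.02), as were Ly6a and Cd34. Of 5 related sialomucins 2 passed in Scx-low cells, Cd164 at 1.40 (1.14 to 1.74) and Podxl2 at 0.870 (0.731 to 1.04), and in Scx-high cells Cd24a alone passed, at 0.156 (0.0864 to 0.259). Of 10 genes of GPI anchor attachment only Pigk passed, with a ratio of 0.970 in Scx-low cells (0.811 to 1.16), and the others of this machinery, which anchors the Ly6 and Thy1 proteins, were under the floor.

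Over the 8 profiles of 4 classes in 2 libraries, the log2 levels of Ly6c1 and Cd34 had a Pearson correlation of 0.966, Ly6a and Ly6c1 of 0.806, Ly6a and Cd34 of 0.763, and Ly6e and Thy1 of -0.843. These are descriptions of 8 points that share libraries and classes. Among 5215 genes, those most like Ly6a were Igf2 (0.961), Rdh14 (0.948), Tmem100 (0.947), H19 (0.946) and Slc1a5 (0.941), of which Igf2 and H19 are imprinted neighbours. Those most like Cd34 were Lamb1 (0.981), Ly6c1, Thbd (0.965), Lpar4 (0.964) and Cdk4 (0.963), and those most like Ly6c1 were Ctdsp2 (0.984), Gnb4 (0.977), Ociad1 (0.975), Cd34 and Lamb1 (0.965). Ly6e was most like Commd7 (0.995), Litaf (0.978), Eif3m (0.975), Eif4a1 (0.974) and Meaf6 (0.973). Thy1 was most like Wfdc1 (0.964), Adamts2 (0.963), Cys1 (0.962), the lubricin gene Prg4 (0.961) and Serf1 (0.951).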

How the data were processed

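Tendon cells of both groups were profiled with 10x Genomics Chromium 3′ kits. The deposited values are UMI counts per gene and cell, which the authors made with Cell Ranger on mm10, keeping barcodes by their total UMI count. The submitters' processing notes name Cell Ranger 1.2.0, and the methods give another version. Totals were 9451606 UMIs in the control and 8250248 in the mutant library. All barcodes were used, and haemoglobin-rich cells (over 50% of UMIs on haemoglobin genes) and cells meeting both the endothelial and immune rule were set apart. UMIs were summed per class and given as CPM, with exact Poisson, conditional binomial and Clopper-Pearson 95% intervals (Python 3.11.15, NumPy 2.4.6, SciPy 1.17.1), tested on simulated data. Cells under 1500 UMIs, 199 control and 328 mutant, were left out of thinned values. Odds ratios added 0.5 to each cell count. Scrublet in scanpy 1.11.5 called 10 control and 5 mutant doublets, which were kept except in one alternative. Levels entered correlations as log2(CPM + 10). Named genes were the 5 members, up to 4 genes per list past the floor with the largest ratios, and the 5 genes most like each member. Gene positions came from GENCODE M21. The members and lists were chosen with earlier results of these data known. With 1 library per group, no test was made.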

Additional observations from a re-analysis of the deposited data

Results flagged for a closer look

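Ly6a and Cd34 differed in opposite directions between libraries in the mesenchymal classes, with counting intervals on opposite sides of equality. The mutant over control ratio of Ly6a was 2.52 in Scx-high cells and 0.843 in Scx-low cells, and that of Cd34 was 5.28 and 0.870. The difference between the classes was not tested, since each condition is 1 library. In control Scx-high cells both genes were at shares that background allows, but the few positive cells overlapped. In Scx-low cells without Pi16 both ratios lay above 1, and they were not recomputed with mural-marker cells left out.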

How the results depend on the processing

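Each ratio of mutant to control in Scx-high and Scx-low cells, and of Scx-low to Scx-high cells in each library, was recomputed under 10 alternatives of scaling, thresholds and cells kept. Of the 100 recomputed mutant over control ratios, 89 stayed within the counting interval of the reported value and 11 moved outside it, and none changed sides of 1. Of the 100 ratios between classes, 77 stayed and 23 moved, and those of Thy1 spanned 1. The number of members at least 2-fold higher or lower kept within 1.5 times its value under each alternative. The share of Cd34-positive cells depended on depth. Among Ly6a-positive control Scx-low cells it was 64.1% when thinned to 1000 UMIs, 90.8% when thinned to 2500, 89.9% without thinning and 51.5% with 2 or more UMIs required. Among Ly6a-positive mutant ones it was 53.7%, 72.8%, 78.5% and 38.8%. Among Ly6a-negative mutant ones it was 34.0%, 49.4%, 52.4% and 20.9%, and among Ly6a-negative control ones 36.7% without thinning and 12.9% with 2 or more UMIs. In each of these settings the share was higher among Ly6a-positive cells. These settings differ in depth or in the detection rule, and the depth also sets which cells are kept. No paired analysis was possible because each group is 1 library. Few doublets were called, 0.423% of control and 0.193% of mutant cells, where the expected rate was set at 2%. Doublets that were not called may remain. Without them, Ly6a was 43.5 times higher in control Scx-low than in control Scx-high cells, outside the counting interval of the reported 34.8. The mutant over control ratio of Ly6a in Scx-high cells was then 3.13 against 2.52, within its interval. Depth limits the endothelial values and genes under 50 CPM.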
